A study of Mus musculus with 23 samples.

Results

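The transcripts of the mouse mitochondrial genome were described here in sorted cells of a colon tumour model. The deposited table has 54354 gene rows, and the members are its 37 rows whose gene name starts with mt-. By the gene type given in the table they are 2 ribosomal RNA (rRNA) genes, 13 protein-coding (mRNA) genes and 22 transfer RNA (tRNA) genes. All 37 identifiers lie on the mitochondrial chromosome (M) in GENCODE release M21, the mm10 annotation. Of the 37 genes, 15 had counts in every library, namely the rRNA and mRNA genes, and 22 were at 0 in every library, namely the tRNA genes. The rule used gene names only, and it was set with earlier results of these data known.

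RNA was sequenced from 12 libraries of GFP-negative and 11 libraries of GFP-positive cells. Both groups derive from AKP organoids, cultured mouse intestinal tumour epithelium, that carried the red fluorescent marker tdT and a Basp1-eGFP-DTR reporter, in which the Basp1 locus drives a green fluorescent protein and a receptor for diphtheria toxin. The labels do not spell out what AKP stands for. The organoids had been placed in the colon wall of mice, and cells of the primary tumours were separated by flow cytometry on GFP alone as far as the labels say. Every library has the genotype label Basp1-GFP, the tissue label colon, and no untreated or reporter-free control. The labels used here name no host strain, age, sex, number of animals or number of organoid lines. HFD stands in the title of the series, and diet is in none of the labels.

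Mitochondrial DNA is transcribed from both of its strands into long precursor RNAs. The tRNA sequences that lie between the larger genes are cut out of these precursors, which releases the rRNAs and the mRNAs. The rRNAs mt-Rnr1 and mt-Rnr2 form the small and the large subunit of the mitochondrial ribosome, and the mRNAs encode core subunits of respiratory complexes I, III and IV and of the ATP synthase. Most mitochondrial mRNAs carry a short poly(A) tail, which in some of them also completes the stop codon, and ND6 mRNA is known in human cells to lack such a tail. The libraries were made with poly(A) selection per the labels' protocols, so the tail of each RNA bears on how much of it was captured.

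The ends of 4 mRNA genes are shown because they differ in the annotated stop codon, with the bases of the gene that belong to it in capitals. As annotated, 10 of the 13 mRNA genes ended in a complete stop codon and 3 ended in a single T. The bases are the last 30 of each gene, 5′ to 3′, from the GENCODE M21 transcripts on the plus strand of mm10.
mt-Co3, chrM:9361-9390: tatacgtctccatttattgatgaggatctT
mt-Cytb, chrM:15259-15288: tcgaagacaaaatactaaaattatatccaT
mt-Nd4, chrM:11515-11544: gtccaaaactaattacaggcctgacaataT
mt-Atp6, chrM:8578-8607: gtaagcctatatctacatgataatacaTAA
The first 3 are the genes annotated with an incomplete stop codon, and mt-Atp6 is the most abundant mRNA per length in these libraries. The last base of mt-Atp6 (8607) is also the first of mt-Co3. The ends of mt-Nd1 (3707) and mt-Nd2 (4951) overlap the starts of mt-Ti (3706) and mt-Tw (4950). Whether the mature mRNAs of mt-Atp6, mt-Nd1 and mt-Nd2 hold the complete stop codon was not tested.

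Neighbouring genes overlap, which matters for how reads are assigned. mt-Nd6 is the single mRNA gene on the minus strand, and its end overlaps the end of mt-Nd5 by 14 bases, shown in capitals.
mt-Nd5, chrM:13536-13565, plus strand: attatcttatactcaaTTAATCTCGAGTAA
mt-Nd6, chrM:13552-13581, minus strand: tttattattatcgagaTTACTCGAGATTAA
On the plus strand mt-Atp8 shares 43 bases with mt-Atp6, and mt-Nd4l shares 7 bases with mt-Nd4. The kit marks strand, but the strand setting of the quantification is not given in the labels, so reads over the 14 bases may belong to either gene.

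The tRNA genes are much shorter than the other members. The longest and the shortest are shown whole, from the same transcripts and on the plus strand.
mt-Tl1, chrM:2676-2750: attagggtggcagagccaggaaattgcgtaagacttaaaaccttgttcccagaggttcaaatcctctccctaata
mt-Ts2, chrM:11613-11671: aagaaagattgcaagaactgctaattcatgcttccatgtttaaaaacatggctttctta
mt-Tl1 carries leucine and has 75 bases, and mt-Ts2 carries serine and has 59. The 22 tRNA genes had 0 counts in all 23 libraries together, which allows a share of up to 1.2e-05% of all counts (3 counts). In single libraries the same limit ran from 7.1e-05% in GFP-positive 1 to 0.0118% in GFP-negative 5. Of these genes 14 lie on the plus and 8 on the minus strand. How well such short RNAs pass poly(A) selection was not tested, so the counts do not tell how much tRNA the cells held.

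Nuclear copies of mitochondrial DNA can take reads from the members. mt-Co1 and Gm29216, an unprocessed pseudogene on chromosome 1 (ENSMUSG00000101249, 24615706 to 24616197, minus strand, 492 bases), are shown because the end of the gene is the same in both. The stretches are aligned to each other, with the bases that differ in capitals.
mt-Co1, chrM:6381-6440, plus strand: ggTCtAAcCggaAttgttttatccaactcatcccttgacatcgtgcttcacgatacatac
Gm29216, chr1:24616138-24616197, minus strand: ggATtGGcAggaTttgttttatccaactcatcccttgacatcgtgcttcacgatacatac
Counted from the 5′ end of mt-Co1, with its base first, the differences are T1056A, C1057T, A1059G, A1060G, C1062A and A1066T. From position 1067 to the end of mt-Co1 at 1545, the 479 bases are identical in both genes.

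Total counts ran from 25458 to 4238877 per library, with medians of 144334 in the GFP-negative group (n = 12) and 1418140 in the GFP-positive group (n = 11), and 4 libraries held fewer than 100000 counts. Library numbers form 2 separate runs. The first, with 6 GFP-negative and 5 GFP-positive libraries, is called library set 1, and the second, with 6 of each, library set 2. What separated the runs is not labelled. GFP-negative 4, GFP-negative 5 and GFP-positive 4 stand apart from the rest. The library name of GFP-positive 4 begins with 8045-8050, and those of the GFP-negative libraries begin with 8050 or 8045. All 3 are treated here as 1 identifier, 8045-8050, a reading of the names that the labels do not state. They hold 57728, 25458 and 37125 counts, and had the highest mitochondrial rRNA shares of the series. Group comparisons and depth correlations are therefore also given without them, a choice made after seeing the data. Of 10 epithelial marker genes, 1 to 4 had no count in these 3 libraries, against 0 to 2 in the other 20, and the summed level of the list was 3534 to 5421 CPM (each count scaled to the library total) against 2573 to 8812 CPM. The nuclear-retained RNAs Malat1 and Neat1 together had 6201 CPM in GFP-negative 4 and 8445 CPM in GFP-negative 5, below the 16945 to 48218 CPM of the other 20 libraries. GFP-positive 4 had 37279 CPM, inside that range. The part of these levels in the mitochondrial shares was not tested.

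Mitochondrial rRNA took a median of 2.98% of all counts in the GFP-negative libraries, with a range from 1.83% to 32.1% (n = 12). In the GFP-positive libraries the median was 3.24%, with a range from 1.76% to 9.07% (n = 11). The groups overlapped over most of their range, and the values above 5% were those of GFP-negative 4 (32.1%, 95% Wilson interval 31.7% to 32.5%), GFP-negative 5 (12.0%, 11.6% to 12.4%) and GFP-positive 4 (9.07%, 8.78% to 9.37%). These intervals cover counting error alone. The other 20 libraries ran from 1.76% to 4.99%. GFP-negative 12, which with 69580 counts was also shallow, had 4.90%. The mean log2 share was 0.10 lower in the GFP-positive group, against a pooled SD of 0.97 between libraries. Without identifier 8045-8050 it was 0.23 higher. Either difference was smaller than the spread between libraries. As a sum over members, the share was not given a test.

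Mitochondrial mRNA took a median of 4.77% of all counts in the GFP-negative libraries (3.33% to 9.38%, n = 12). The GFP-positive libraries had a median of 4.71% (2.07% to 6.78%, n = 11). The ranges overlapped, with GFP-negative 4 and GFP-negative 5 at the top and GFP-positive 9 alone at the bottom. GFP-positive 9 held 857615 counts, so its share of 2.07% had a narrow counting interval (2.04% to 2.10%). The mean log2 share was 0.15 lower in the GFP-positive group, with a pooled SD of 0.46, and it was 0.01 higher without identifier 8045-8050. In bulk RNA, fewer mitochondria, fewer cells rich in them and less RNA per mitochondrion cannot be told apart.

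The ratio of rRNA to mRNA counts does not depend on the library total. How well each class passed poly(A) selection was not tested, so the ratio does not tell which was more abundant in the cells. The median ratio was below 1 in both groups of both sets, and mRNA counts exceeded rRNA counts in 18 of 23 libraries. The 5 exceptions were GFP-negative 4 (3.92), GFP-positive 9 (2.09), GFP-positive 4 (1.90), GFP-negative 5 (1.28) and GFP-positive 5 (1.06). The high ratios came in different ways. In the libraries of 8045-8050 the rRNA share was raised beside an mRNA share of 4.78% to 9.38%, whereas GFP-positive 9 had an rRNA share of 4.32%, inside the range of the other libraries, beside the lowest mRNA share. The mean log2 ratio was 0.05 higher in the GFP-positive group, with a pooled SD of 0.81, and 0.22 higher without 8045-8050.

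**Figure D1:**
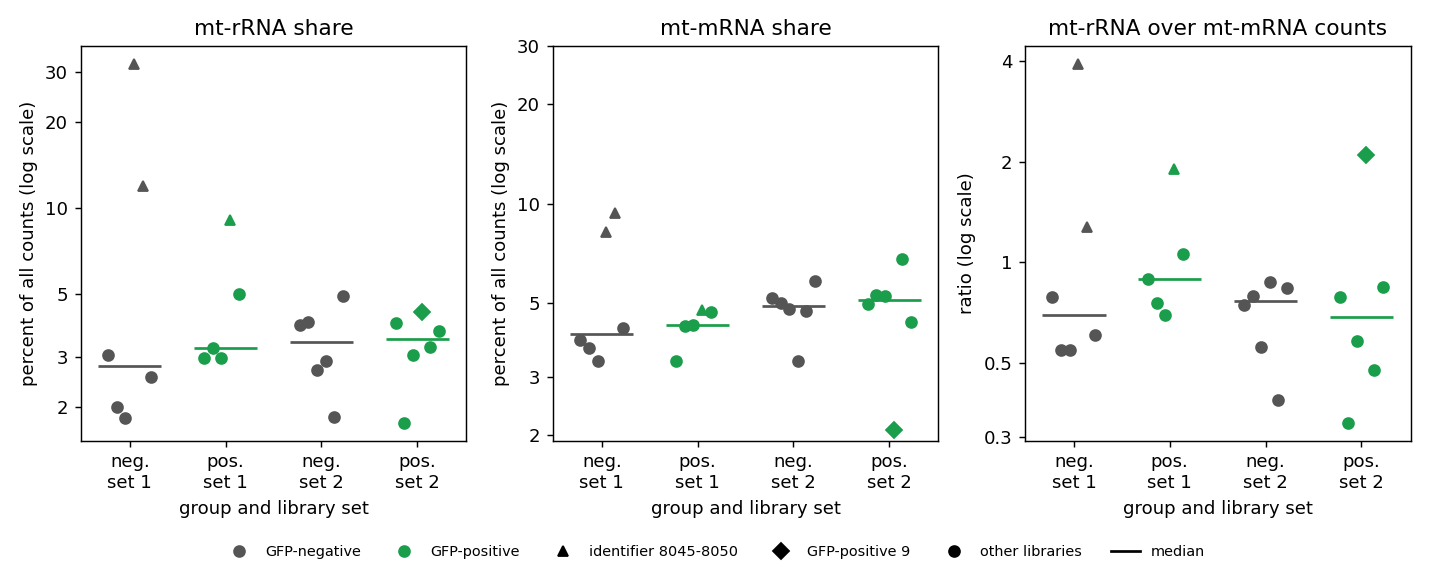
Percent of all counts in mitochondrial rRNA and mRNA, and the ratio of rRNA to mRNA counts, in every library by group and library set (log axes, bars are medians). The 3 triangles, identifier 8045-8050, have the highest rRNA shares, and the diamond, GFP-positive 9, has the lowest mRNA share at 2.07%.

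Within set 1 the GFP-negative libraries had a median rRNA share of 2.80% (1.83% to 32.1%, n = 6), and the GFP-positive libraries one of 3.22% (2.98% to 9.07%, n = 5). Within set 2 it was 3.39% (1.84% to 4.90%, n = 6) and 3.47% (1.76% to 4.32%, n = 6). The mean log2 differences were -0.17 in set 1 and 0.00 in set 2. In set 1 the median pointed upwards and the mean downwards. For the mRNA share the set 1 medians were 4.04% and 4.28%, and the set 2 medians were 4.91% and 5.12%. The mean log2 differences of the mRNA share were -0.23 and -0.07, so in both sets median and mean differed in sign as well. Without 8045-8050 the set 1 medians of the rRNA share were 2.27% and 3.10% (n = 4 each), with a mean log2 difference of 0.58. Those of the mRNA share were 3.76% and 4.28%, with a difference of 0.13.

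mt-Rnr2 (ENSMUSG00000064339, chromosome M, 1094 to 2675, plus strand), the large-subunit rRNA, was the most counted member. Its level ran from 14834 to 208304 CPM in GFP-negative libraries, with a median of 24503 CPM, and from 14835 to 71300 CPM in GFP-positive libraries, with a median of 27012 CPM. The lowest values were nearly the same in both groups, and the highest of each was a library of 8045-8050. Without that identifier the highest values were 40040 and 39747 CPM.

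mt-Rnr1 (ENSMUSG00000064337, chromosome M, 70 to 1024, plus strand), the small-subunit rRNA, varied more. In GFP-negative libraries it ran from 2691 to 112562 CPM with a median of 5313 CPM, and in GFP-positive libraries from 2752 to 19421 CPM with a median of 6863 CPM. Again the highest were GFP-negative 4 and GFP-positive 4, and without 8045-8050 the ranges were 2691 to 8977 CPM and 2752 to 10184 CPM. Both rRNAs are cut from the same precursor, yet their ratio was not fixed. The counts of mt-Rnr2 were 1.85 times those of mt-Rnr1 in GFP-negative 4 and 8.45 times in GFP-negative 6, with a median of 4.74. The ratio in the 3 libraries of 8045-8050 was 1.85, 2.64 and 3.67, and that of the other 20 ran from 2.52 to 8.45. Per length, mt-Rnr2 was above mt-Rnr1 in all 23 libraries, by a median of 2.86 times.

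The mRNA genes were compared per length, as CPM per kilobase of gene, because they run from 204 to 1824 bases. Their median levels spanned 74.2-fold. mt-Atp6, a subunit of the ATP synthase (ENSMUSG00000064357, chromosome M, 7927 to 8607), was the most abundant, with a median of 14773 CPM per kilobase. It was the first of the 13 in 15 libraries, and mt-Co3, a core subunit of complex IV, was the first in the other 8. These neighbours in the order, with medians of 14773 and 12915, therefore did not differ beyond their spread.

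mt-Cytb (8779), the cytochrome b of complex III, came next and lay below mt-Co3 in all 23 libraries. It was followed by mt-Co2 (6106), a core subunit of complex IV, and by the complex I subunits mt-Nd1 (4669) and mt-Nd4 (2525). Each was above the next in 19, 21 and 22 libraries, and mt-Nd4 was above mt-Nd2 (1035) in all 23. The middle of the order was less settled. mt-Nd2 was above mt-Co1 (712) in 21 libraries, mt-Co1 above mt-Atp8 (666) in only 10, and mt-Atp8 above mt-Nd3 (426) in 21. At the low end were mt-Nd3, mt-Nd4l (325), mt-Nd6 (229) and mt-Nd5 (199). mt-Nd5 was the last of the 13 in 13 libraries, mt-Nd3 in 5, mt-Nd6 in 4 and mt-Nd4l in 1. Without 8045-8050 the order of the 13 medians was the same.

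Adjacent genes that share one mature mRNA had unlike counts. mt-Atp8 and mt-Atp6 lie on one bicistronic mRNA, and mt-Nd4l and mt-Nd4 on another. Per length, mt-Atp6 was above mt-Atp8 by a median of 22.6 times (5.04 to 52.0), and mt-Nd4 was above mt-Nd4l by a median of 7.13 times (1.72 to 15.2). In both pairs the upstream gene, farther from the poly(A) tail, was the lower in all 23 libraries. It was also the shorter, with 204 against 681 bases and 297 against 1378 bases. The levels were divided by the full gene length, and they depend on how reads over each overlap were split. The parts of position, length and overlap in these ratios were not tested.

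**Figure D2:**
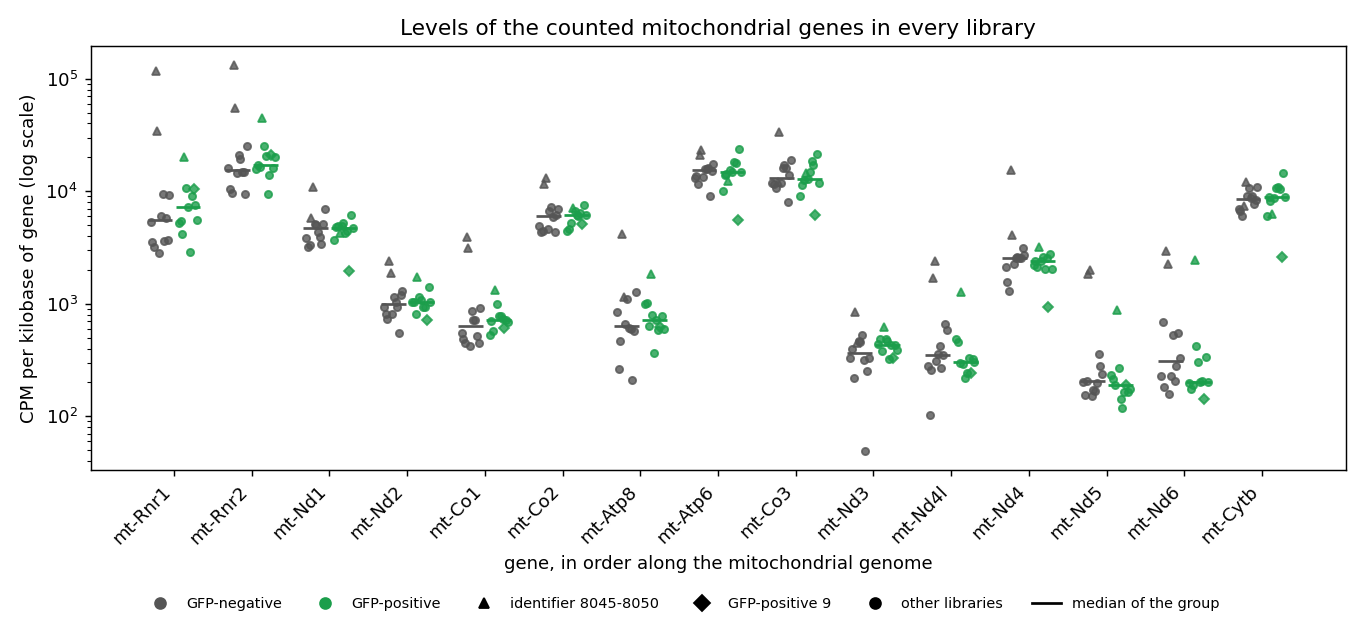
CPM per kilobase (log axis) of the 15 counted genes in genome order, 1 point per library, with group medians as bars. Group medians lie close together for most genes. The triangles (identifier 8045-8050) stand highest for both rRNAs, mt-Nd2, mt-Co1, mt-Nd4l, mt-Nd4, mt-Nd5 and mt-Nd6.

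By complex, mRNA counts split in nearly the same way in both groups. The 7 complex I genes held a median of 21.4% of mitochondrial mRNA counts in GFP-negative and 21.2% in GFP-positive libraries. The 3 complex IV genes held 35.2% and 34.3%, mt-Cytb of complex III 20.9% and 22.7%, and the 2 ATP synthase genes 21.8% and 22.8%. The spread between libraries was larger than any of these differences. Complex I ran from 15.7% in GFP-positive 7 to 42.6% in GFP-negative 4, where mt-Nd4 alone held 25.9%. Without 8045-8050 the complex I medians were 20.5% and 21.0%. In all these shares mt-Co1 was counted as deposited, at a median of 2.37% of mRNA counts. With the counts of Gm29216 added its median was 12.1%, so the shares depend on how those counts are read.

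The makeup of the mRNA pool differed in the libraries that stood apart. Of the 15 counted genes, 13 had their highest CPM in GFP-negative 4 or GFP-negative 5, and the other 2, mt-Atp6 and mt-Cytb, had it in GFP-positive 10. The share of mt-Nd5, a complex I subunit, in mRNA counts was 4.08%, 3.90% and 3.32% in GFP-negative 4, GFP-negative 5 and GFP-positive 4. In the other 20 libraries it ran from 0.41% to 1.96%. The mt-Nd6 share in the 3 libraries was 1.86%, 1.26% and 2.65%, against at most 0.98% elsewhere. The mt-Co1 share was 7.40%, 5.11% and 4.28%, and GFP-positive 9 lay between these with 4.57%. With the counts of Gm29216 added to mt-Co1 and to the mRNA total, the 3 libraries had 12.5%, 13.3% and 16.1%. The other 20 then ran from 8.24% to 17.9% (GFP-positive 9), so the 3 lay inside their range. mt-Cytb was low in the same 4 libraries, with 10.3% in GFP-negative 4, 14.7% in GFP-negative 5 and 14.4% in GFP-positive 9, against a median of 21.5% over all libraries.

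GFP-positive 9 had another makeup. It had the lowest CPM of all libraries for 6 genes, namely mt-Nd1, mt-Atp6, mt-Co3, mt-Nd4, mt-Nd6 and mt-Cytb. mt-Atp6, for example, was at 3779 CPM there and at 6178 CPM or more in every GFP-negative library. Its mt-Co2 level of 3521 CPM lay inside the range of the other libraries, so mt-Co2 held 17.0% of mRNA counts, against 7.38% to 10.1% in the other 22. GFP-negative 10, which shares identifier 7907 with it, held 8.83% in mt-Co2. Its summed level of 10 macrophage markers was 138 CPM and that of 8 fibroblast markers was 324 CPM, both inside the range of the other GFP-positive libraries, and all 4 haemoglobin genes were at 0.

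Sequence sharing limits what single mRNA counts mean. Of the 31-base words of each gene, the share also present in another M21 transcript was 0% for mt-Rnr1 and mt-Nd1 and 2.71% for mt-Rnr2. It was 6.55% for mt-Cytb, 7.36% for mt-Nd6, 7.47% for mt-Atp8, 13.5% for mt-Nd2 and 16.8% for mt-Nd5. For mt-Nd4 and mt-Co1 it was 62.8% and 63.9%. For mt-Nd3, mt-Nd4l, mt-Atp6, mt-Co3 and mt-Co2 it was 98.1% or more. Counts of the 7 mRNA genes above 50% are therefore estimates that the quantification could have divided with nuclear copies.

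For most of these genes the nuclear copies took few or no counts. The block of copies on chromosome 1 holds Gm28439, Gm10222, Gm28438, Gm28437, Gm10925 and Gm28661, matching mt-Nd4, mt-Nd4l, mt-Nd3, mt-Co3, mt-Atp6 and mt-Co2, and all had 0 counts. Gm29216 at the end of the same block was different, with 118558 counts over all libraries against 25313 for mt-Co1. It held 82.4% of the counts of the pair and exceeded mt-Co1 in 22 of 23 libraries. The exception was GFP-negative 4, with 0.78 counts of Gm29216 for each count of mt-Co1, and the median ratio was 4.55. Another copy of mt-Co1, Gm13340 on chromosome 2, shares 45.2% of its words and had 83 counts.

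The level of mt-Co1, the catalytic subunit of complex IV, depends on how these counts are read. As deposited, mt-Co1 had a median of 712 CPM per kilobase, the 8th of 13 mRNAs. With the counts of Gm29216 added, it had 3749 CPM per kilobase, the 6th in the order. Whether the counts of Gm29216 came from the mitochondrial or the nuclear sequence was not tested. The added counts bring mt-Co1 to a median of 12.1% of mRNA counts, with GFP-positive 9 highest at 17.9%.

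**Figure D3:**
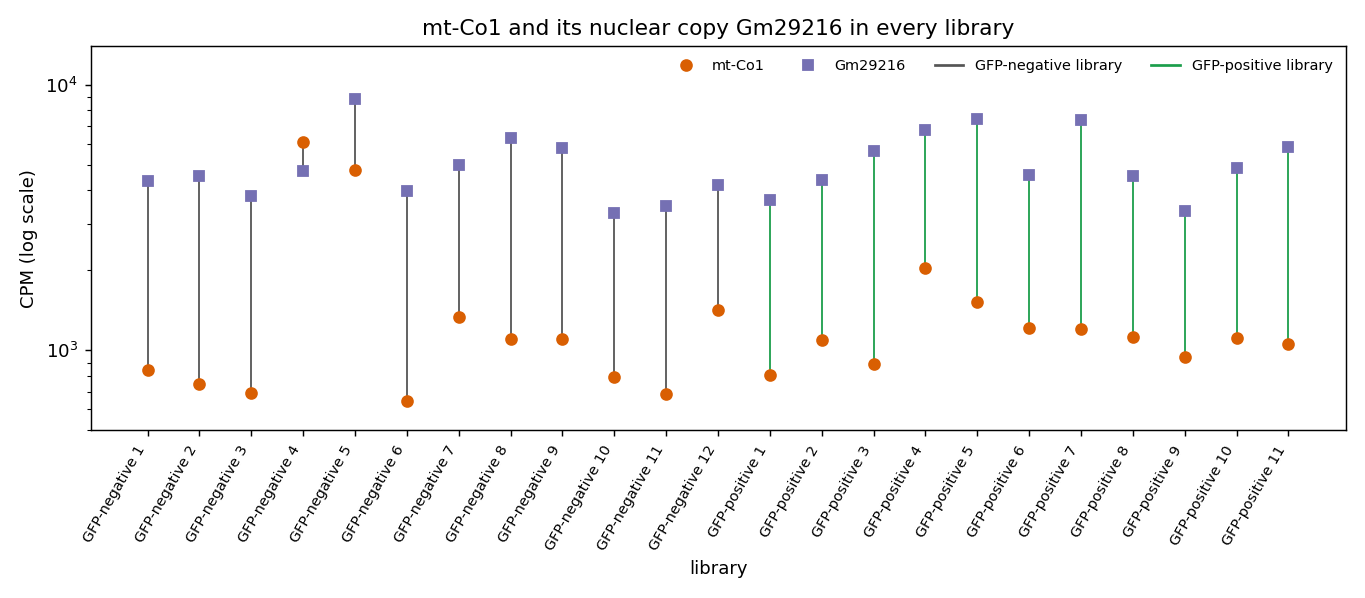
CPM (log axis) of mt-Co1 and of its nuclear copy Gm29216 in every library, joined by a line coloured by group. Gm29216 lies above mt-Co1 in 22 libraries and below it in GFP-negative 4.

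GFP-positive and GFP-negative libraries were then compared gene by gene. All 15 counted members passed the filter on low counts in every fit. Of them 0 were called by edgeR's quasi-likelihood test at a Benjamini-Hochberg adjusted p of 0.05 over all 6621 genes tested, where the share called was 0.0151% of all genes. At an unadjusted p under 0.05 there were also 0 members, against 4.95% of all genes, and DESeq2 called 0 members, against 0.362% of all genes. The ranges of the groups overlapped for all 15 genes, in all libraries, in each set and without 8045-8050. Of all genes tested, the ranges did not overlap for 0% over all libraries, 0.571% in set 1, 1.11% in set 2 and 0% without 8045-8050. With so few genes called in the whole table, 0 of 15 is no result about the members.

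Fitted log2 fold changes, GFP-positive minus GFP-negative, were negative for 13 of 15 members, with a median of -0.34, against 41.5% of all genes negative and a median of 0.07. The rRNAs had -1.30 for mt-Rnr1 (SE 0.67, edgeR adjusted p = 0.996) and -0.65 for mt-Rnr2 (SE 0.45, edgeR adjusted p = 0.997). Without GFP-negative 4 alone the values were 0.08 and 0.09. Without identifier 8045-8050, 4 of 15 members were negative and the median was 0.12. mt-Rnr1 then had 0.39 (SE 0.26) and mt-Rnr2 0.19 (SE 0.18), and 9 of the 15 genes had changed sign. The fitted values of the rRNAs also depended on the method with all libraries kept. DESeq2 gave 0.01 for mt-Rnr1 and 0.05 for mt-Rnr2, with 12 of 15 members negative, and the replicate block by identifier gave 0.09 for mt-Rnr1. In the edgeR fit without identifier 8045-8050, again 0 members were called, against 0.0139% of the 7194 genes tested. That fit had 0 members at an unadjusted p under 0.05, against 4.2% of genes.

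Among complex I genes, mt-Nd5 had -1.08 (SE 0.53, edgeR unadjusted p = 0.0534, adjusted p = 0.996), the smallest p of the members. Its level was 276 to 3653 CPM with a median of 372 CPM in GFP-negative libraries, and 215 to 1589 CPM with a median of 344 CPM in GFP-positive libraries. The medians differed little, and the highest values in each group were libraries of 8045-8050. Without them the range was 276 to 654 CPM in GFP-negative and 215 to 486 CPM in GFP-positive libraries, and the log2 fold change was -0.14 (SE 0.17).

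mt-Nd6, the minus-strand complex I gene, had -0.94 (SE 0.62) over all libraries and -0.44 (SE 0.26) without 8045-8050, a direction that did not turn. Its level ran from 82.5 to 1524 CPM in GFP-negative libraries, with a median of 159 CPM. In GFP-positive libraries it ran from 73.5 to 1266 CPM, with a median of 105 CPM. The groups overlapped, and the difference did not pass the threshold in either fit.

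The other complex I genes had -0.15 for mt-Nd1 (SE 0.18), -0.10 for mt-Nd2 (SE 0.20), 0.14 for mt-Nd3 (SE 0.25), -0.74 for mt-Nd4 (SE 0.39) and -0.59 for mt-Nd4l (SE 0.40). The complex IV genes had -0.56 for mt-Co1 (SE 0.40), -0.17 for mt-Co2 (SE 0.18) and -0.11 for mt-Co3 (SE 0.21). The value of mt-Co1 is that of its deposited counts, and Gm29216, which held most counts of the pair, had 0.14 (SE 0.16). With the counts of Gm29216 added, mt-Co1 stayed negative, and the median of the 15 members was -0.15. mt-Cytb had 0.05 (SE 0.20), and the ATP synthase genes had -0.34 for mt-Atp8 (SE 0.39) and -0.06 for mt-Atp6 (SE 0.19). mt-Nd3 and mt-Cytb were the 2 members with a positive value. mt-Atp6 was the most abundant mRNA per length, at 6178 to 15869 CPM in GFP-negative libraries (median 10509 CPM) and 3779 to 16141 CPM in GFP-positive libraries (median 9993 CPM). Its groups had nearly the same median and overlapped over most of their range, with GFP-positive 9 below and GFP-positive 10 above every GFP-negative library.

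**Figure D4:**
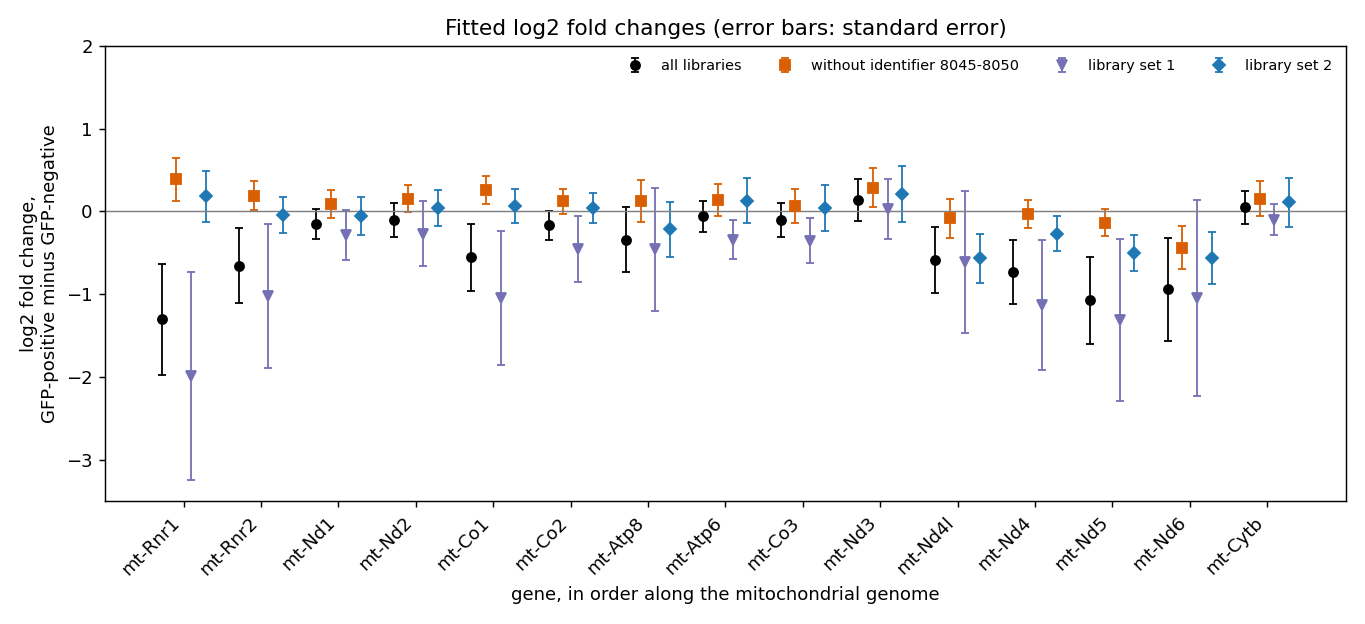
Fitted log2 fold changes, GFP-positive minus GFP-negative, of the 15 counted genes with standard errors, over all libraries, without identifier 8045-8050, and in each library set. Set 1 values are mostly below 0 with wide errors (mt-Rnr1 -1.98), while those without 8045-8050 run from -0.44 (mt-Nd6) to 0.39 (mt-Rnr1) and those of set 2 from -0.56 (mt-Nd6) to 0.21 (mt-Nd3).

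In library set 1, which holds the 3 libraries of 8045-8050, 14 of 15 members had a negative log2 fold change and the median was -0.46. mt-Rnr1 had -1.98 (SE 1.26) and mt-Rnr2 -1.02 (SE 0.87). edgeR called 0 members, against 0% of 5256 genes tested, and 0 were under an unadjusted p of 0.05, against 5.4% of genes. DESeq2 called 0 members, against 0.114% of genes. Without 8045-8050, 14 of 15 members were positive instead, with a median of 0.39. Then mt-Rnr1 (0.84, SE 0.30), mt-Rnr2 (0.61, SE 0.22) and mt-Co1 (0.63, SE 0.23) were under an unadjusted p of 0.05, 3 of 15 members against 3% of 9245 genes. None of the 15 was called by edgeR after adjustment, where 0% of those genes were (adjusted p = 0.996 for each of the 3). That fit had 4 libraries in each group.

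In library set 2, 8 of 15 members had a positive log2 fold change and the median was 0.04. mt-Rnr1 had 0.18 (SE 0.31) and mt-Rnr2 -0.05 (SE 0.22). The values furthest from 0 were those of mt-Nd4l (-0.56, SE 0.30), mt-Nd6 (-0.56, SE 0.31) and mt-Nd5 (-0.50, SE 0.22, edgeR unadjusted p = 0.0295, adjusted p = 0.599). edgeR called 0 members, against 1.28% of 6952 genes, and 1 member, mt-Nd5, was under an unadjusted p of 0.05, against 6.88% of genes. DESeq2 called 0 members, against 2.04% of genes. In this set the summed level of 10 macrophage markers was 1441 to 5772 CPM in GFP-negative and 115 to 766 CPM in GFP-positive libraries. That of 8 fibroblast markers was 1135 to 8646 CPM and 165 to 970 CPM. Of the tested markers 6 of 7 macrophage genes and 3 of 7 fibroblast genes were called lower in GFP-positive libraries. In set 1 the macrophage sum was 299 to 4373 CPM in GFP-negative libraries, with a median of 747 CPM. In GFP-positive libraries it was 142 to 22544 CPM, with a median of 298 CPM and the highest value in GFP-positive 3. Of 6 tested macrophage genes 0 were called by edgeR or DESeq2 (0 under an unadjusted p of 0.05 with edgeR). The fibroblast sum in set 1 was 127 to 2384 CPM in GFP-negative and 0 to 2090 CPM in GFP-positive libraries. Its medians were 172 and 149 CPM, and 0 of 4 tested genes were called by either tool. The part of these markers in the members' values was not tested.

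The test of the difference between the sets, an interaction of group and set, called 0 members, against 0% of 6621 genes with edgeR, and DESeq2 called 0, against 0.0604% of genes. No member was under an unadjusted p of 0.05 with edgeR, against 6.4% of genes. The smallest p was that of mt-Rnr1, with an interaction of 2.10 (SE 1.19, edgeR unadjusted p = 0.0931, adjusted p = 0.783). Without 8045-8050 its sign turned, to -0.61 (SE 0.49). In that fit mt-Nd5 (-0.87, SE 0.30) and mt-Nd4l (-1.23, SE 0.44) were under an unadjusted p of 0.05, 2 of 15 members against 5.46% of genes, and neither passed after adjustment (edgeR adjusted p = 0.845 for both), nor did any of the 7194 genes (0%).

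Library names begin with an identifier. Of these, 10 had libraries of both populations, and differences were also taken within them. GFP-positive cells had the higher rRNA share in 6 of 10 identifiers, with a mean log2 difference of 0.09 ± 0.72 (SD, n = 10). The mRNA share was higher in 4 of 10 (-0.13 ± 0.44), and the ratio of rRNA to mRNA was higher in 8 of 10 (0.21 ± 0.55). Each mean was smaller than its SD. Without 8045-8050 the means were 0.22 ± 0.62, -0.04 ± 0.37 and 0.26 ± 0.56 (SD, n = 9). The ratio differed most in 7907 (1.26), the identifier of GFP-positive 9, and in 7421 (0.96). It differed by 0.081 or less in 40-1, 5780 and 7968, and was lower in GFP-positive cells in 61-1 (-0.66) and 8045-8050 (-0.24). For 61-1 the log2 values of GFP-positive 2 (set 1) and GFP-positive 7 (set 2) were averaged. Their ratios were 0.75 and 0.33, against 0.79 in GFP-negative 8 of set 2. For 8045-8050 the log2 values of GFP-negative 4 and GFP-negative 5 were averaged.

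Single genes varied in the same way between identifiers. Identifier 7421 had the highest GFP-positive minus GFP-negative difference for 10 of the 15 genes, among them both rRNAs (1.59 for mt-Rnr1 and 1.26 for mt-Rnr2). Identifier 8045-8050 had the lowest for 8 genes, among them the same rRNAs (-1.65 and -0.92). The mean of mt-Rnr1 was 0.19 ± 1.10 (SD, n = 10), and 0.40 ± 0.94 (SD, n = 9) without 8045-8050. mt-Nd6 was lower in GFP-positive cells of 8 of 10 identifiers (-0.42 ± 0.60, SD, n = 10) and mt-Nd3 higher in 8 of 10 (0.42 ± 0.88). For mt-Nd3 the mean rests on 7907 (2.73), where the GFP-negative library held 17.2 CPM, its lowest level in the series. This level stands for fewer than 3 counts, so the difference in 7907 is not well measured. The other genes were higher in 3 to 6 of 10.

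Depth ran with the shares of single members, and this was measured for mt-Rnr1, mt-Rnr2 and mt-Co1. For mt-Co1 the counts were used as deposited, without those of Gm29216. Over 23 libraries, Pearson's r of log2 share with log2 total count was -0.48 for mt-Rnr1 (permutation p = 0.0174, adjusted p = 0.0261 over 3 genes). For mt-Rnr2 it was -0.45 (permutation p = 0.0268, adjusted p = 0.0268) and for mt-Co1 -0.50 (permutation p = 0.0124, adjusted p = 0.0261). Spearman's rho was -0.33, -0.32 and -0.33, none past the threshold (permutation p = 0.130, 0.141 and 0.131, adjusted p = 0.141 for each). Over all 23 libraries, shallow libraries thus had higher shares on Pearson's measure alone. Within GFP-positive libraries Spearman's rho was -0.37, -0.58 and -0.73 (permutation p = 0.262, 0.0657 and 0.0148, unadjusted), past the threshold for mt-Co1. Within GFP-negative libraries it was -0.57, -0.39 and -0.46 (permutation p = 0.0561, 0.210 and 0.134, unadjusted).

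The relation rested on the shallowest libraries. Without the 2 farthest from the median depth, GFP-negative 5 and GFP-positive 4, r was -0.29, -0.24 and -0.27 for mt-Rnr1, mt-Rnr2 and mt-Co1 (permutation p = 0.212, 0.317 and 0.243). Without 8045-8050 it was 0.09, 0.19 and 0.13. Without the 4 libraries under 100000 counts it was 0.24, 0.41 and 0.33. Within set 1, r was -0.64, -0.58 and -0.67 (permutation p = 0.0285, 0.0622 and 0.0238), and within set 2 it was 0.14, 0.00 and 0.26. Within the groups it was -0.56, -0.43 and -0.53 in GFP-negative (permutation p = 0.0512, 0.166 and 0.0760) and -0.56, -0.69 and -0.82 in GFP-positive libraries (permutation p = 0.0770, 0.0325 and 0.00504). Low depth, identifier 8045-8050 and a high mitochondrial share came together in these data and cannot be told apart.

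**Figure D5:**
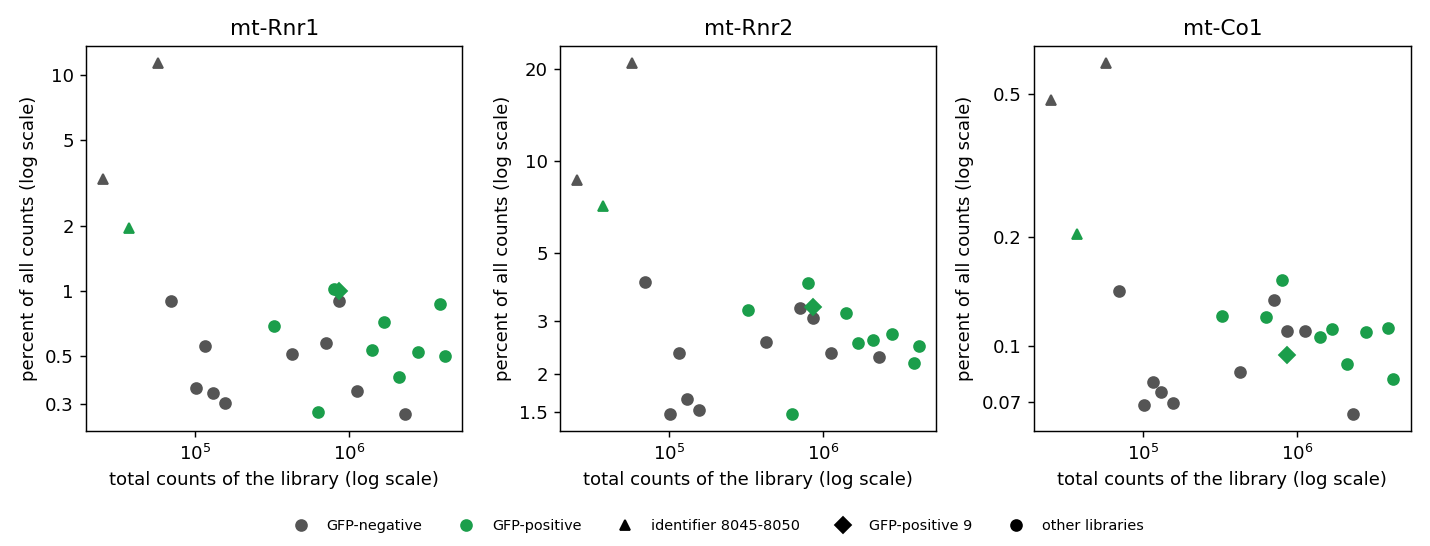
Percent of all counts in mt-Rnr1, mt-Rnr2 and mt-Co1 against the total count of the library (log axes), 1 point per library. The 3 triangles, identifier 8045-8050, lie at low depth and high share, and r over the other 20 libraries is 0.09, 0.19 and 0.13.

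Nuclear genes that make, process and translate these transcripts were looked at beside them. Of 35 genes of mitochondrial transcription, RNA processing and decay, 11 were tested over all libraries, and 10 of these were positive, with a median of 0.23. edgeR called 0 of the 11, against 0.0151% of all genes, with 0 under an unadjusted p of 0.05, and DESeq2 called 0. The 2 most expressed were Hsd17b10, a subunit of the enzyme that cuts mitochondrial tRNAs at their 5′ end (0.26, SE 0.24), and Slirp, which stabilises mitochondrial mRNAs (0.10, SE 0.21). In the 3 libraries of 8045-8050, 23 to 29 of the 35 had no count, so depth limits this list there. Without these libraries 13 of 14 tested genes were positive, with a median of 0.14.

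Nuclear partners of the encoded proteins had medians close to 0 over all libraries. Of 80 tested respiratory chain and ATP synthase subunits, 48 were positive and the median was 0.04, with Cox4i1 of complex IV at 0.17 (SE 0.16) and Atp5j of the ATP synthase at 0.03 (SE 0.16). Of 74 tested mitochondrial ribosomal protein genes, 40 were positive and the median was 0.02, with Mrpl33 at 0.09 (SE 0.17) and Mrps21 at -0.13 (SE 0.19). edgeR called 0 in either list, against 0.0151% of all genes, and DESeq2 called 0, against 0.362%. Under an unadjusted p of 0.05 with edgeR were 2 respiratory chain and 1 ribosomal protein genes (2.5% and 1.35%, against 4.95% of all genes). Without 8045-8050 the medians were 0.10 and 0.03. In set 1 the medians were -0.27 and -0.27, with 8 of 80 and 3 of 67 genes under an unadjusted p of 0.05 (10% and 4.48%, against 5.4% of all genes). In set 2 they were 0.26 and 0.15, with 10 of 81 and 0 of 75 such genes (12.3% and 0%, against 6.88%). Both tools called 0 in each list and set. In the interaction of group and set, 73 of 80 respiratory chain genes were positive, with a median of 0.50 against -0.01 over all genes, and 21 were under an unadjusted p of 0.05 (26.2%, against 6.4% of all genes). Of the ribosomal protein genes 57 of 74 were positive, with a median of 0.43, and 1 was under that p (1.35%). Both tools called 0 genes of either list in that fit too. Without 8045-8050, 76 of 82 respiratory chain genes were positive in the interaction, with a median of 0.50, and 14 were under an unadjusted p of 0.05 (17.1%, against 5.46% of genes). The nuclear ribosomal repeat Rn18s-rs5 had -0.26 (SE 0.32), and its share ran from 0.69% in GFP-positive 7 to 5.29% in GFP-positive 10. In the 3 libraries of 8045-8050 it was 1.66% to 2.87%, inside that range, while mitochondrial rRNA was at its highest.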

How the data were processed

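The table of expected counts was deposited by the authors, made with Salmon 1.3.0 on mm10 per the submitters' processing notes. Its values were already whole, so none was rounded. The labels name no annotation, Salmon option or strand setting. Per the labels' protocols, RNA came from organoids with TRIzol and a column kit, whereas the design text speaks of digested tumours. Libraries were poly(A)-selected and prepared with NEBNext Ultra II Directional reagents.

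Shares are counts divided by the total count of the library. CPM values carry no TMM factors, and CPM per kilobase divides them by the gene's length in GENCODE M21, whose transcripts also gave the sequences. Groups were compared with edgeR 4.0.16 in R 4.3.3 (filterByExpr, TMM, robust quasi-likelihood fit, Benjamini-Hochberg adjustment over all genes tested), with DESeq2 1.42.0 as an alternative, and depth by two-sided permutation tests with 100000 resamples. Wilson intervals are at 95%, and the limit for a count of 0 is 3 counts. Reads carry no molecular identifiers, so both cover counting error only.

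Groups came from the titles. 8045, 8050 and 8045-8050 were read as 1 identifier. The labels do not say whether each library had its own animal. The p-values therefore measure spread between libraries, which may be technical. The main fit was not paired by identifier and treats libraries of the same identifier as independent. Deviations from the group mean correlated at over 0.1 in 5 of 10 pairs of the same identifier (-0.22 to 0.40). For pairs of the same title number it was 2 of 11 (-0.17 to 0.40). The limit of 0.1 was a choice, so these values do not settle whether identifiers pair the libraries. Fits with a replicate block by identifier are given as an alternative. The members and lists were chosen with earlier results of these data known. Values by library are given for the rRNAs, the most and the least abundant mRNA per kilobase, mt-Nd6 and any member past the threshold (there was none). With all tRNA genes at 0, no tRNA could be ranked by counts. Of each other list, the members past the threshold, at most 3, or else the 2 most expressed are named. Library GFP-positive 9, Gm29216 and the other single genes were described after their values were seen.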

Additional observations from a re-analysis of the deposited data

Results flagged for a closer look

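On the untransformed values, 20 sets of 5 or 6 libraries were examined for a single library far from the rest. They were 4 combinations of group and library set, with 5 measures each, and 3 such cases were found. Chance gives about 1 in 20 for independent, normally distributed sets. The measures share counts, and log values were not examined, so the 3 cannot be set against that rate. GFP-negative 4 had a mitochondrial rRNA share of 32.1%, against 12.0% in the next highest of the 6 GFP-negative libraries of set 1. Its ratio of rRNA to mRNA counts was 3.92, against 1.28 in the next. GFP-positive 9 had a ratio of 2.09, against 0.84 in the next highest of the 6 GFP-positive libraries of set 2. The cause was not tested.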

How the results depend on the processing

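The alternatives were another test (DESeq2), RLE scaling, library sizes without the members, no filter on low counts, library set as a covariate, each library left out in turn, libraries under 100000 counts left out, and a replicate block by identifier or by title number. Leaving out identifier 8045-8050 and adding the counts of Gm29216 to mt-Co1 or to the mRNA total were chosen after seeing the data. The count of members called was 0 in every fit, over all libraries, in each set and for the interaction. Under the replicate block by identifier edgeR called 2 genes in all and by title number 0, with 0 members in either. Differences of the rRNA share, the mRNA share and the ratio moved by less than 1 SD between libraries: they ranged from -0.23 to 0.18, -0.21 to -0.04 and -0.09 to 0.26 with 1 library left out, and were 0.09, -0.13 and 0.21 as means within identifiers under the replicate block. Without the 4 shallow libraries they were 0.32, 0.06 and 0.27. RLE scaling moved the median of all genes in the interaction from -0.01 to -0.16, and no filter moved it from 0.07 to 0.19 over all libraries.

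Single fold changes often turned sign. Without libraries under 100000 counts, mt-Rnr1 had 0.51, mt-Rnr2 0.29, mt-Nd1 0.18, mt-Nd2 0.21, mt-Co1 0.33, mt-Co2 0.16, mt-Atp8 0.23, mt-Atp6 0.18 and mt-Co3 0.12. Without identifier 8045-8050 the same genes had 0.39, 0.19, 0.089, 0.16, 0.26, 0.12, 0.12, 0.14 and 0.064. Under the replicate block by identifier, mt-Rnr1 had 0.091, mt-Nd2 0.027, mt-Co1 0.031, mt-Atp8 0.027 and mt-Cytb -0.12, and under that by title number mt-Rnr1 had 0.033, mt-Nd2 0.030 and mt-Atp8 0.071. DESeq2 gave 0.0093 for mt-Rnr1, 0.048 for mt-Rnr2 and -0.055 for mt-Cytb, RLE scaling -0.056 for mt-Cytb, and no filter 0.052 for mt-Atp6 and 0.0023 for mt-Co3. With 1 library left out the values ranged from -1.45 to 0.079 for mt-Rnr1, -0.77 to 0.091 for mt-Rnr2, -0.17 to 0.11 for mt-Nd2, -0.44 to 0.17 for mt-Atp8, -0.17 to 0.032 for mt-Atp6, -0.20 to 0.013 for mt-Co3 and -0.065 to 0.15 for mt-Cytb. The turn came without GFP-negative 4 in the first 5 of these, without GFP-positive 1, 4 or 9 for mt-Atp6 as well, without GFP-negative 5 for mt-Co3, and without GFP-positive 10 for mt-Cytb. Apart from the libraries left out, the cause was not tested.

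The correlation of share with depth, for mt-Rnr1, mt-Rnr2 and mt-Co1 in this order, was -0.29, -0.24 and -0.27 without the 2 libraries farthest from the median depth, 0.24, 0.41 and 0.33 without libraries under 100000 counts, and 0.091, 0.19 and 0.13 without identifier 8045-8050. It was -0.56, -0.43 and -0.53 within GFP-negative libraries and 0.14, 0.00022 and 0.26 within set 2. Within GFP-positive libraries mt-Rnr1 had -0.56, past the threshold no longer, and within set 1 mt-Rnr2 had -0.58. Depth limits the 4 shallow libraries most: 3 counts stand for 0.0118% of GFP-negative 5.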
